A study of Mus musculus with 36 samples.

Results

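The genes described here were 10 that mark astrocytes in their homeostatic state, namely Slc1a2, Slc1a3, Glul, Slc7a10, Aqp4, Mlc1, Gja1, Gjb6, Aldoc and Aldh1l1. They were taken by gene symbol from the 36172 gene entries of a table of hippocampal polyA RNA libraries, all 10 were found, and all 10 had enough counts to be tested in every comparison. All animals were Cx3cr1-NuTRAP mice, in which cre recombinase is driven by the promoter of the microglial and macrophage gene Cx3cr1, and in which cre activity adds a GFP tag to ribosomes. The series asked whether the age at tamoxifen induction of cre affects how well this model isolates microglial RNA and detects age-related changes.

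The young group had early induction, was 6 months old and gave 10 whole-tissue inputs from 5 females and 5 males. The old early group had early induction, was 22 months old and gave 12 inputs from 7 females and 5 males. The old late group had late induction, was also 22 months old and gave 7 inputs from 5 females and 2 males. The same 7 old late animals gave 7 libraries marked Pos and microglia in the labels, made by translating ribosome affinity purification (TRAP), in which tagged ribosomes are pulled down with an antibody to GFP and their RNA is sequenced. Both hippocampi of an animal were used, and the input was set aside from the cleared homogenate before the pulldown. The ages at induction are not given in the sources used here, an uninduced or cre-negative group was not analysed here, and TRAP libraries of the other 2 groups were not analysed here.

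Astrocytes are glial cells that take up transmitter and potassium after synaptic activity, pass metabolites through gap junctions to each other, and cover blood vessels with endfeet rich in water channels. Slc1a2 (GLT-1) and Slc1a3 (GLAST) carry glutamate into the astrocyte, and Glul (glutamine synthetase) turns it into glutamine. Slc7a10 (Asc-1) exchanges small neutral amino acids. Aqp4 is the water channel of the endfoot, and Mlc1 is an astrocyte membrane protein whose loss causes a leukodystrophy with cysts. Gja1 and Gjb6 encode connexin 43 and connexin 30, the gap junction subunits of astrocytes. Aldoc (aldolase C) is a glycolytic enzyme, and Aldh1l1 is a folate enzyme much used to label astrocytes. Homeostatic genes of this kind are usually considered apart from genes such as Gfap that rise in reactive astrocytes.

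To show the genes that rose with age below, the 250 bases before the RefSeq start site of Aldoc, Glul and Aldh1l1 are printed 5′ to 3′ from the RefSeq promoter table of GRCm38.p6. Capitals mark matches, on either strand, to an NFI core motif (TTGGC), a STAT site (TTCNNNGAA) or a GC box (GGGCGG). The windows are Aldoc at chr11:78323948-78324197, Glul at chr1:153899679-153899928 and Aldh1l1 at chr6:90550543-90550792, all on the plus strand.
Aldoc: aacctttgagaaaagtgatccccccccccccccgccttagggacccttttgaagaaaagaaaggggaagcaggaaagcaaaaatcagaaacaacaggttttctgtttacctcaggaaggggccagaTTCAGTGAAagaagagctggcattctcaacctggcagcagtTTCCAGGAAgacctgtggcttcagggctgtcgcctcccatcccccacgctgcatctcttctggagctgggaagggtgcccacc
Glul: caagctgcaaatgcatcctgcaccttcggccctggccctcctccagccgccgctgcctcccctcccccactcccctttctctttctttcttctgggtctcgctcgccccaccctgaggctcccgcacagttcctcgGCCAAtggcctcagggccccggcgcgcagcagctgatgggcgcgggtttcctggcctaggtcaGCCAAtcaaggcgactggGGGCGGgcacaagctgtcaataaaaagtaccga
Aldh1l1: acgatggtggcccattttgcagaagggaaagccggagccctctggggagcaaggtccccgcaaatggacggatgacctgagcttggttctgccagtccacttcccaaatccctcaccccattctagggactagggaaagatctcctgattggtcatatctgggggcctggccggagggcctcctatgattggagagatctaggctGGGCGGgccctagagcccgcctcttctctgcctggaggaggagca

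The printed Aldoc window held 2 STAT matches, the Glul window 2 NFI core motifs and 1 GC box, and the Aldh1l1 window 1 GC box. Of 10 windows of 9 of the genes (Aldoc has 2 start sites in the table, Aqp4 was not matched), 4 held the NFI core motif, against 41.5% of the 32851 windows of that length. The STAT site was in 2 of the 10 (Aldoc and Slc1a3) and in 7.02% of all windows, and the GC box in 5 of the 10 and in 32.7%. The TATA box (TATAAA) was in the Slc1a3 window only and in 12.4% of all, and the full NFI palindrome in 0 of the 10 and in 0.0365%. The start sites of Glul and Aldh1l1 lay 16 and 55 bases from the gene start in the deposited table and the printed one of Aldoc at it. A second Aldoc start site lay 1125 bases away, and its window, not printed, held 0 STAT matches, 1 NFI core motif and 1 GC box. These matches describe letters and do not show that a factor binds.

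The libraries held 12.9 to 20.4 M estimated counts each, so the genes had from 326 counts (Slc7a10) to 41301 counts (Slc1a2) in a library. Values below are CPM, that is counts per M of the effective library size. Several libraries stood apart in other tissue markers. The summed level of 8 choroid plexus and ependyma genes was 68.5 to 213 CPM in 14 inputs and 1733 to 4175 CPM in the other 15, with none between. Ttr weighed most in this sum, with an average log2 CPM of 10.4 in the inputs, against 6.33 for the next gene, Kl. Young replicate 6 and old early replicate 2 had high sums of thalamus and striatum genes (342 and 441 CPM, against group medians of 232 and 224), and old early replicate 5 had 2273 CPM of hemoglobin and related genes. The S numbers in the labels (such as S25) ran in blocks by group, and what they stand for is not given in the labels. The effects of group and of anything that follows these numbers cannot be told apart among the inputs. No libraries of a group agreed within sampling noise.

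As a percent of the effective library size, the summed counts of the 10 genes were 0.526% to 0.563% in young and 0.532% to 0.626% in old early inputs. They were 0.566% to 0.63% in old late inputs and 0.426% to 0.559% in TRAP. Per kilobase of exon, the order of the levels in young inputs was Glul (605 CPM per kb), Aldoc (245), Slc1a2 (154), Slc1a3 (114), Mlc1 (75.6), Gja1 (50.7), Gjb6 (33.9), Slc7a10 (18.1), Aqp4 (16.2) and Aldh1l1 (13.2). The first 7 held their places in all 4 groups. In each group of inputs only the last 3 had ranges that overlapped with a neighbour's. In TRAP the overlaps also took in Slc1a3 with Mlc1, Gja1 with Gjb6, and Gjb6 with Slc7a10.

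**Figure D1:**
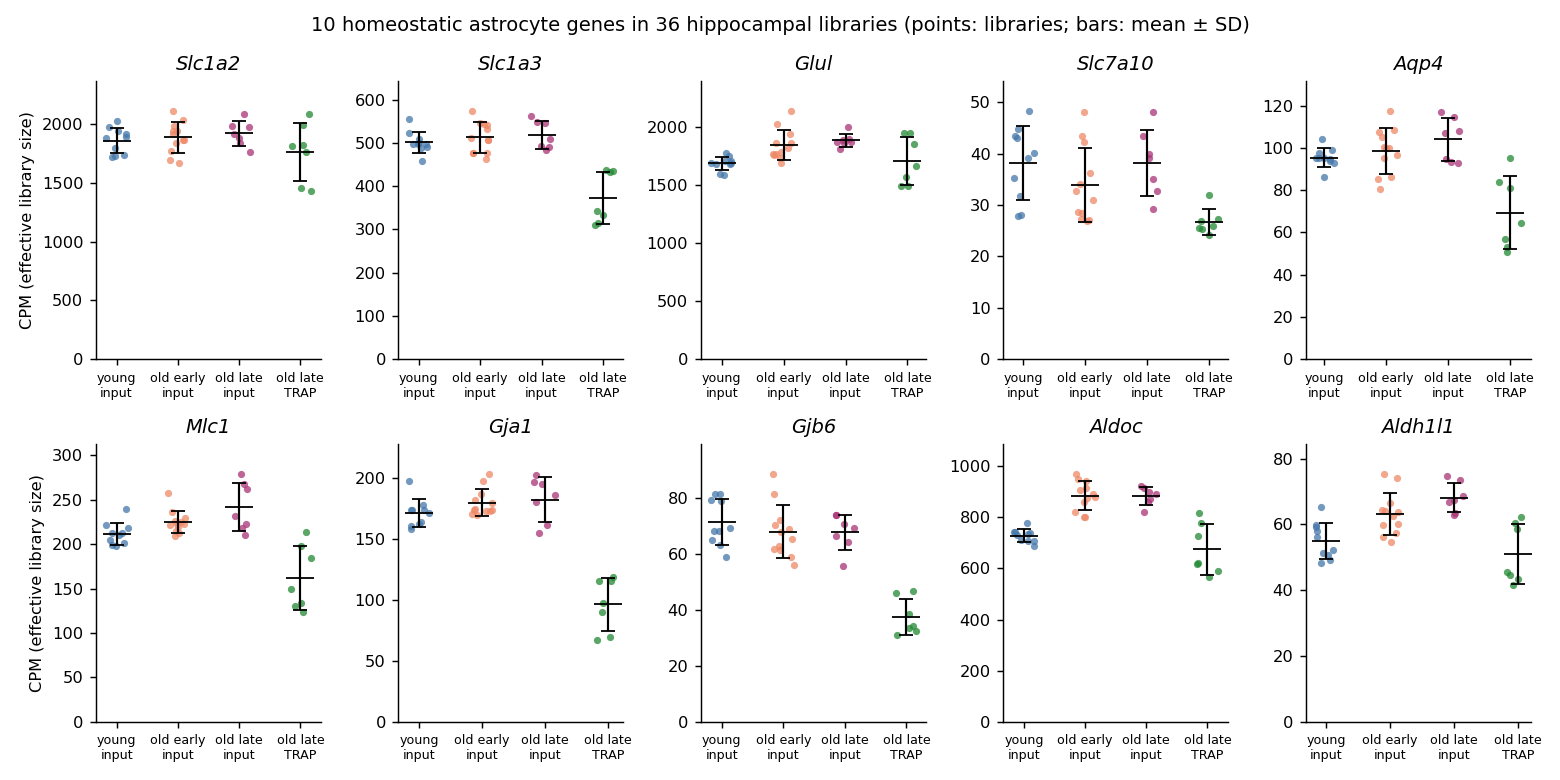
CPM (vertical axis, from 0) of each of the 10 genes in every library (points), by group, with mean and SD. Aldoc sits higher in both old input groups than in the young one, and the TRAP libraries of Gja1 and Gjb6 sit below all of their inputs.

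Reads of paralogs could be split by the authors' counting, since the counts are fractional. The longest run of identical coding bases was 17 between Slc1a2 and Slc1a3, 13 between Gja1 and Gjb6, 20 between Gjb6 and Gjb2 and 26 between Aldoc and Aldoa. The longest reference coding sequence of each gene was used. Untranslated parts, other transcripts and other paralogs were not compared, so the runs do not bound all the sequence that could share reads. They are shown as the longest stretches without a mismatch in these coding sequences.
Slc1a2 and Slc1a3: accattaacatggatgg
Gja1 and Gjb6: agggaaggtgtgg
Gjb6 and Gjb2: tctcacatccggctctgggc
Aldoc and Aldoa: tatgccagcatctgccagcagaatgg
Slc7a10 also shares 178 bases with Lrp3 on the opposite strand, whose counts were 290% of those of Slc7a10, and the use of strand in counting is not given in the sources used here. Gm15756, which overlaps Aldh1l1, had 0 counts in every library.

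Age at the same induction was compared between the old early and young inputs. Both groups had early induction, so the time since induction would differ together with age, and their effects cannot be told apart here. Aldoc, Aldh1l1 and Glul were higher in old animals, by 1.22-fold, 1.15-fold and 1.10-fold. None of the 10 was lower, and the 7 others, among them both glutamate transporters, both connexins and Aqp4, did not pass the test. The count of 3 higher stood against 13% of 14948 genes higher and 12.6% lower (25.6% in either direction) at an edgeR adjusted p under 0.05. The median log2 fold change was 0.06 over the 10 genes and 0.01 over all genes tested. In whole tissue, a change in the number of astrocytes and a change in RNA per astrocyte cannot be told apart.

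Late-induced old animals were compared with the same young inputs, so age and induction differ together here and the young libraries are shared with the first comparison. Aldh1l1 (1.25-fold), Aldoc (1.22-fold), Mlc1 (1.15-fold) and Glul (1.13-fold) were higher, and none was lower. The count of 4 higher stood against 17% of genes higher and 17.5% lower (34.5% in either direction). The median log2 fold change was 0.12 over the 10 genes and 0.01 over all genes tested.

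**Figure D2:**
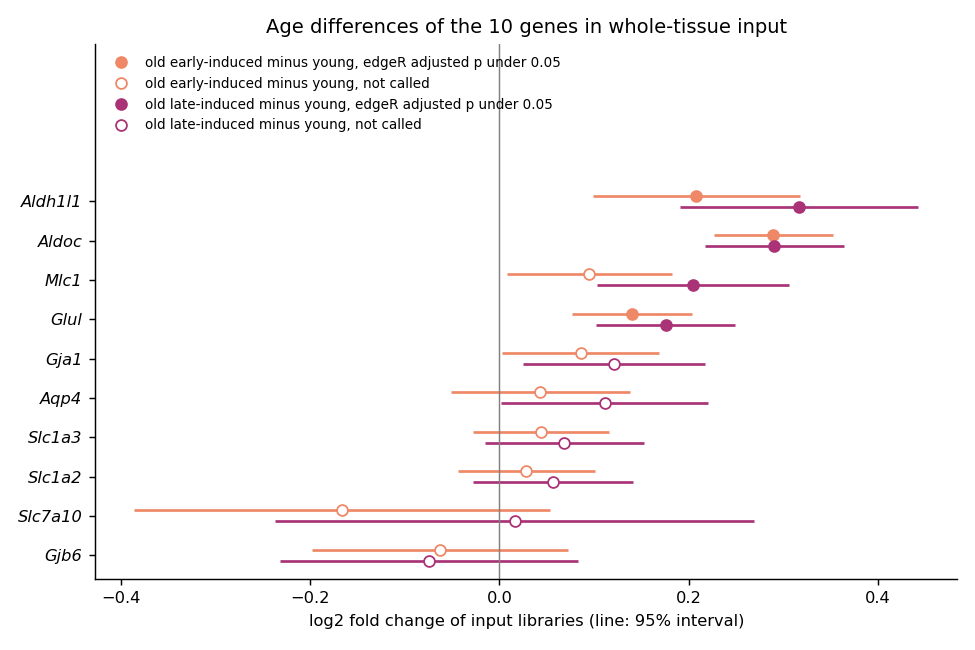
Log2 fold change of each gene (horizontal axis) in old early and old late inputs against the shared young inputs, with 95% intervals; filled points passed the edgeR test. Aldoc, at 0.29 in both comparisons, lies farthest from 0 relative to its interval, and the intervals of Gjb6 and Slc7a10 span 0.

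Among the metabolic genes, Aldoc (identifier 11676, chromosome 11, 78324198 to 78326760) ranged from 686 to 779 CPM in young inputs with a median of 734. In old early inputs it lay between 801 and 971 CPM (median 886), and in old late inputs between 820 and 921 CPM (median 889). Every old input lay above every young one. That was so for 0.876% of 14505 genes in the first comparison and for 2.45% of 14559 in the second, counting genes higher with age. Genes lower without overlap made up 0.986% and 4.7%. The log2 fold change was 0.29 ± 0.03 (SE, edgeR adjusted p 1.32e-07) in old early and 0.29 ± 0.04 (SE, edgeR adjusted p 9.13e-07) in old late animals. Aldh1l1 ranged from 48.2 to 65.1 CPM in young inputs (median 54.1), from 54.8 to 75.5 CPM in old early inputs (median 63.1) and from 62.9 to 74.6 CPM in old late inputs (median 67.5). Its ranges overlapped, although the lowest old late input lay above all young inputs but the highest. The log2 fold change was 0.21 ± 0.06 (SE, edgeR adjusted p 0.00622) and 0.32 ± 0.06 (SE, edgeR adjusted p 0.000334). In a fit of females only, Aldh1l1 did not pass the test in old early animals (edgeR adjusted p 0.194).

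In the glutamate pathway the enzyme and the transporters differed in whether they passed the test. Glul (identifier 14645, chromosome 1, 153899945 to 153909714) ranged from 1586 to 1782 CPM in young inputs (median 1693). In old early inputs it lay between 1693 and 2143 CPM (median 1804), and in old late inputs between 1809 and 2000.2 CPM (median 1876). The old late inputs did not overlap the young ones, whereas the old early inputs did. The log2 fold change was 0.14 ± 0.03 (SE, edgeR adjusted p 0.00183) in old early and 0.18 ± 0.04 (SE, edgeR adjusted p 0.000594) in old late animals. In a fit of females only, Glul did not pass the test in old early animals (edgeR adjusted p 0.165). Slc1a2 averaged 1860 ± 109 CPM in young (SD, n = 10), 1887 ± 132 CPM in old early (SD, n = 12) and 1920 ± 105 CPM in old late inputs (SD, n = 7). Its log2 fold changes of 0.03 and 0.06 had 95% intervals of -0.04 to 0.10 and -0.03 to 0.14. In a fit of females only it was higher in old late animals, by 0.15 (edgeR adjusted p 0.0265). Slc1a3 averaged 501 ± 24.7, 513 ± 35.2 and 519 ± 32.3 CPM in the same order, with log2 fold changes of 0.04 (95% interval -0.03 to 0.12) and 0.07 (-0.02 to 0.15). With both sexes, the intervals of both transporters end below the value of Aldoc, and whether Glul and the transporters differ from each other was not tested.

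Of the endfoot genes, Mlc1 ranged from 198 to 239 CPM in young (median 211), from 209 to 258 CPM in old early (median 223) and from 211 to 280 CPM in old late inputs (median 232). The groups overlapped at their lower ends. The log2 fold change was 0.09 ± 0.04 in old early (SE, edgeR adjusted p 0.116) and 0.20 ± 0.05 in old late animals (SE, edgeR adjusted p 0.00284). The direct difference between the old groups was 0.11 (edgeR adjusted p 0.387), so the old groups were not shown to differ. Aqp4 averaged 95.4 ± 4.56 CPM in young (SD, n = 10), 98.6 ± 10.7 CPM in old early (SD, n = 12) and 104 ± 10.2 CPM in old late inputs (SD, n = 7). It did not pass the test in either comparison (edgeR adjusted p 0.545 and 0.124), and it passed in old late animals in a fit of females only (0.20, edgeR adjusted p 0.0265).

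The gap junction genes had fold changes of opposite sign, neither past the test. Gja1 ranged from 158 to 197 CPM in young (median 172), from 169 to 203 CPM in old early (median 174) and from 154 to 202 CPM in old late inputs (median 186). The 3 ranges overlapped over most of their length. The log2 fold change was 0.09 (edgeR adjusted p 0.137) and 0.12 (edgeR adjusted p 0.0555). The second value was close to the threshold and passed it in edgeR without young replicate 1 (0.14, adjusted p 0.0267), without old late replicate 6 (0.14, adjusted p 0.025) and without old late replicate 7 (0.14, adjusted p 0.0187), and in 5 of 11 other settings. Gjb6 averaged 71.4 ± 8.26 CPM in young (SD, n = 10), 68.03 ± 9.42 CPM in old early (SD, n = 12) and 67.8 ± 6.38 CPM in old late inputs (SD, n = 7), with log2 fold changes of -0.06 (edgeR adjusted p 0.533) and -0.08 (edgeR adjusted p 0.499). Without the 3 libraries that stood apart in thalamus, striatum or blood genes, Gjb6 was lower in old early animals, by a log2 fold change of -0.19 (edgeR adjusted p 0.00848). One of these, old early replicate 2, held the highest Gjb6 value of all inputs (88.9 CPM).

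Other astrocyte genes were read from lists alongside the 10, against the shares of all genes given above (13% higher and 12.6% lower in old early, 17% higher and 17.5% lower in old late animals), and whether any list differs from these shares or from another list was not tested. Of 22 transport and metabolism genes, 10 were higher and 1 lower in old early animals and 12 higher and 1 lower in old late animals. They included Slc14a1, a urea transporter (log2 fold change 0.57 and 0.67), and Ppp1r3c, a regulator of glycogen synthesis (0.35 and 0.45). Of 14 potassium, water and endfoot genes, 4 were higher and 3 lower, then 6 higher and 3 lower. The matrix proteoglycan Agrn was at -0.36 and -0.48, Kcnj16 at 0.40 in old early and Lamb2 at 0.32 in old late animals. Of 13 astrocyte transcription factors 3 were higher and 0 lower in each, among them Sox9 (0.39 and 0.57) and Sox2 (0.34 and 0.49). Of 23 surface and secreted genes 6 were higher and 2 lower, then 10 higher and 2 lower. Dio2, which activates thyroid hormone, was at -0.59 and -0.54, Ndrg2 at 0.24 in old early and Chrdl1 at 0.45 in old late animals.

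Of the 16 genes of the reactive astrocyte list, 10 were higher and 0 lower in old early and 11 higher and 0 lower in old late animals, with medians of 0.53 and 0.85 on the log2 scale. C4b (2.04 and 2.32), C3 (1.75 and 2.29) and Aspg (1.04 and 1.21) led it, and complement genes such as these are also made by other brain cells. In the same inputs the lists of microglia (14 of 15 and 15 of 15 higher) and oligodendrocytes (10 of 12 and 11 of 12 higher) also rose, while 1 of 11 tested neuron genes was higher and 1 lower in old early and 0 higher and 2 lower in old late animals. The summed oligodendrocyte level was 3270 to 5058 CPM in young, 4123 to 6026 CPM in old early and 4416 to 7297 CPM in old late inputs. No gene of the microglia or oligodendrocyte lists was at 0 in all libraries of a group. The part of these other cell types in the astrocyte values was not tested.

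Induction age was compared directly between old late and old early inputs, where the time since induction would differ with it. None of the 10 genes differed, with log2 fold changes from -0.01 (Gjb6) to 0.18 (Slc7a10) and 1 unadjusted p under 0.05 (Mlc1). The background was 0.0334% of 14948 genes with an adjusted p below 0.05 in edgeR, 0.0268% higher and 0.00669% lower, that is 5 genes, with 1736 at an unadjusted p under 0.05, 58 called by DESeq2 and 838 by edgeR without the 3 libraries that stood apart. Aldoc was 885 ± 56.5 CPM in old early (SD, n = 12) and 882 ± 35.4 CPM in old late inputs (SD, n = 7), with a 95% interval of the log2 difference from -0.07 to 0.07. All 10 genes had overlapping ranges between the old groups. The interval of Slc7a10, from -0.06 to 0.43, was the widest of the 10.

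TRAP was compared with input in the 7 old late animals. All 10 astrocyte genes were lower in TRAP, from 0.52-fold of input for Gja1 to 0.91-fold for Slc1a2, although Slc1a2 and Glul changed sign when the libraries were scaled by neuron genes. Gja1 and Gjb6, the gap junction genes, fell most. Aqp4, Mlc1, Slc7a10, Slc1a3, Aldh1l1 and Aldoc fell to between 0.65-fold and 0.76-fold, and Glul (0.90-fold) and Slc1a2 (0.91-fold) lay nearest to input. The count of 10 lower stood against 28.8% of 14596 genes lower and 30.4% higher (59.2% in either direction), and the median log2 fold change was -0.51 over the 10 genes and -0.02 over all genes tested. Microglial genes moved the other way: Cx3cr1 was higher by 4.09 on the log2 scale (edgeR adjusted p 1.65e-14), and 15 of 15 microglia genes were higher, with a median of 4.28.

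These fold changes are relative to the scaling. Over all genes tested, the median log2 fold change was -0.02 and 51.4% of calls were higher. Under upper quartile scaling these became -0.16 and 34%, and under scaling by library size -0.13 and 38.3%. In both, all 10 genes were lower. Scaling by the summed neuron list gave a median of 0.23 and 83.9% of calls higher, and then 3 of the 10 genes were lower (Aqp4 -0.35, Gja1 -0.66, Gjb6 -0.61), while Slc1a2 and Glul were at 0.11 each and not called.

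The connexins gave the widest separation. Gja1 (identifier 14609, chromosome 10, 56377300 to 56390419) ranged from 154 to 202 CPM in input (median 186) and from 66.9 to 119 CPM in TRAP (median 97.4). Gjb6 (identifier 14623, chromosome 14, 57123301 to 57133611) ranged from 55.9 to 74.1 CPM in input (median 69.3) and from 30.98 to 46.9 CPM in TRAP (median 34.3). For both genes every TRAP library lay below every input library, as for 10.5% of 14655 genes (19.5% had every TRAP library above). The log2 fold change was -0.93 ± 0.12 for Gja1 (SE, edgeR adjusted p 6.52e-06) and -0.87 ± 0.08 for Gjb6 (SE, edgeR adjusted p 8.72e-08). The same lack of overlap held for Slc1a3, Aldoc and Aldh1l1, making 5 of the 10.

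Of the endfoot and transport genes, Aqp4 ranged from 92.9 to 117 CPM in input (median 107) and from 50.7 to 95.4 CPM in TRAP (median 64.3), with only TRAP replicate 5 reaching the input range. Its log2 fold change was -0.61 ± 0.10 (SE, edgeR adjusted p 5.72e-05). Mlc1 ranged from 211 to 280 CPM in input (median 232) and from 123 to 214 CPM in TRAP (median 150), which is -0.59 ± 0.11 as a log2 fold change (SE, edgeR adjusted p 0.000182). Again TRAP replicate 5 alone reached the lowest input. Slc1a3 ranged from 483 to 561 CPM in input (median 509) and from 310 to 438 CPM in TRAP (median 342), which is -0.49 ± 0.08 as a log2 fold change (SE, edgeR adjusted p 5.04e-05). Slc7a10 ranged from 29.2 to 48.04 CPM in input (median 39.1) and from 24.1 to 32.01 CPM in TRAP (median 25.9), which is -0.52 ± 0.10 as a log2 fold change (SE, edgeR adjusted p 0.000226). For Slc7a10 only TRAP replicate 5 lay within the input range.

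Among the enzymes, Aldoc ranged from 820 to 921 CPM in input (median 889) and from 568.2 to 818 CPM in TRAP (median 623), which is -0.40 ± 0.07 as a log2 fold change (SE, edgeR adjusted p 6.82e-05). Aldh1l1 ranged from 62.9 to 74.6 CPM in input (median 67.5) and from 41.5 to 62.3 CPM in TRAP (median 45.7), which is -0.44 ± 0.08 as a log2 fold change (SE, edgeR adjusted p 0.000259). For both genes every TRAP library lay below every input. Glul ranged from 1809 to 2000.2 CPM in input (median 1876) and from 1491 to 1955 CPM in TRAP (median 1663). Slc1a2 ranged from 1764 to 2085 CPM in input (median 1916) and from 1428 to 2084 CPM in TRAP (median 1818). For these last genes the fractions overlapped, and the log2 fold changes of -0.15 ± 0.06 for Glul (SE, edgeR adjusted p 0.0472) and -0.14 ± 0.06 for Slc1a2 (SE, edgeR adjusted p 0.0473) were just past the threshold.

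The calls of Slc1a2 and Glul depended on single libraries. Of 21 fits that left out 1 library or 1 animal, the call was lost in 14 for Slc1a2 and in 15 for Glul. Single libraries whose removal ended the call of Slc1a2 were input replicates 1, 2, 3, 6 and 7 and TRAP replicates 1, 2, 3 and 6, and for Glul input replicates 1, 2, 3, 5, 6 and 7 and TRAP replicates 1, 2, 6 and 7. Over all 21 fits the log2 fold change ranged from -0.18 to -0.09 for Slc1a2 (edgeR adjusted p 0.0117 to 0.188) and from -0.20 to -0.12 for Glul (edgeR adjusted p 0.00747 to 0.124). The calls of the 8 other genes held in all 21 fits. None of the 21 fits held the animal as a block. With that block and all libraries, both Slc1a2 and Glul were called lower.

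Within each animal, the ratio of TRAP to input ordered the genes in much the same way. Gja1 or Gjb6 had the lowest ratio in 7 of 7 animals, and Glul or Slc1a2 the highest in 7 of 7. The log2 ratio of Gja1 ranged from -1.22 (replicate 6) to -0.64 (replicate 3), and that of Gjb6 from -1.12 (replicate 7) to -0.48 (replicate 4). The ratio was below 1 in 7 of 7 animals for 8 genes, in 6 of 7 for Slc1a2 and in 5 of 7 for Glul. The differences in ratio between genes were not tested.

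**Figure D3:**
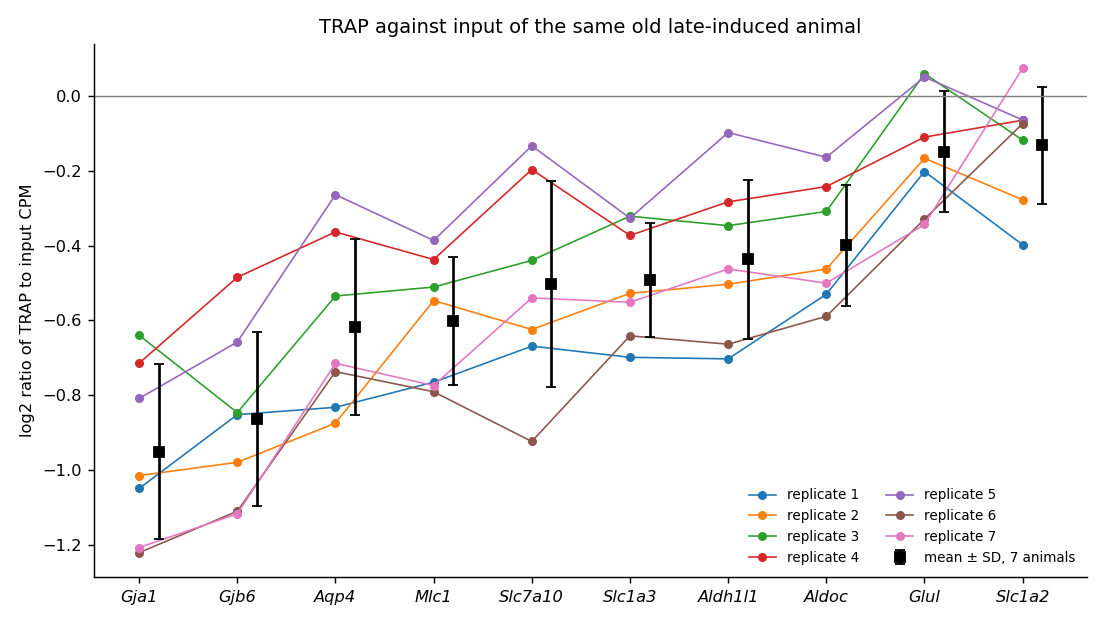
Log2 ratio of TRAP to input CPM (vertical axis) for each of the 10 genes in each of the 7 old late animals (colored lines), with mean and SD (squares). Gja1 and Gjb6 lie lowest and Glul and Slc1a2 nearest to 0, and replicates 3, 4 and 5 lie above the others for most genes.

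Animals also differed over all 10 genes. The median log2 ratio of the 10 genes was -0.39, -0.32 and -0.21 in replicates 3, 4 and 5, and between -0.70 and -0.54 in the other 4 animals. The summed level of the 15 microglia genes in TRAP was 23317, 17344 and 23046 CPM in replicates 3, 4 and 5 and 14310 to 16322 CPM in the others. The median log2 ratio of the neuron list was -0.45, -0.34 and -0.33 in replicates 3, 4 and 5 and -0.23 to -0.11 in the others. That of the oligodendrocyte list was -1.10, -1.19 and -1.16 in replicates 3, 4 and 5 and -1.75 to -1.33 in the others. The endothelial list did not separate these animals (0.85 to 1.35 against 1.03 to 1.52). Replicates 3, 4 and 5 were thus the highest 3 for the astrocyte and oligodendrocyte genes and the lowest 3 for the neuron genes. These groups of animals were seen in the data and are not groups of the study, and the part of the microglial and neuronal levels in the astrocyte ratios was not tested.

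Other astrocyte lists were also lower in TRAP. The shares over all 14596 genes, against which the counts below stand, were 28.8% lower and 30.4% higher. The counts were 19 of 22 transport and metabolism genes lower and 1 higher, 10 of 14 endfoot genes lower and 1 higher, 10 of 13 transcription factors lower and 0 higher (Sox9 -1.15), and 21 of 23 surface and secreted genes lower and 0 higher (Ptprz1 -1.30). Kcnj10, the inward rectifier potassium channel Kir4.1, was lower by a log2 fold change of -0.79 (edgeR adjusted p 2.93e-09). Of 14 tested reactive astrocyte genes 4 were higher, which is near the share of all genes, and 2 lower, with C3 at 2.03 and S100b at -0.67. The median log2 fold changes of other cell type lists were -1.34 for oligodendrocytes (12 of 12 lower), -1.28 for their precursors (8 of 8 lower), -0.27 for neurons (8 of 11 tested lower) and 1.15 for endothelial cells (9 of 10 higher). The 10 astrocyte genes, at -0.51, lay between the neuron and oligodendrocyte lists, and differences between lists were not tested.

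Slc7a10 varied most among the inputs, with a coefficient of variation of 18.8% in young, 21.3% in old early and 16.9% in old late inputs. Its level moved with the choroid plexus and ependyma list. It ranged from 26.8 to 35.3 CPM in the 14 inputs with a low list sum (median 28.9) and from 35.1 to 48.3 CPM in the 15 with a high sum (median 43). The ranges overlapped by a narrow margin. High sums were found in 6 of 10 young, 4 of 12 old early and 5 of 7 old late inputs. In a model of the 29 inputs that also held group and sex, Slc7a10 rose by 0.10 ± 0.01 on the log2 scale per doubling of the list sum (SE, edgeR adjusted p 9.9e-09). Slc1a2 and Slc1a3 fell by 0.02 per doubling (edgeR adjusted p 0.0246 and 0.0339), and the other 7 did not pass, against 12.0% of 14948 genes with a slope in either direction. This fit was added after the values were seen.

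Within the low and the high inputs, a split made at a gap seen in the data, the age values of Slc7a10 were near 0. Over all inputs its log2 fold changes were -0.17 and 0.02 and did not pass the test (edgeR adjusted p 0.285 and 0.935). The differences within each set, and the part of choroid plexus tissue in them, were not tested. Among inputs with a low sum the mean log2 difference of Slc7a10 from young (n = 4) was -0.06 in old early (n = 8) and 0.01 in old late animals (n = 2). Among inputs with a high sum it was -0.03 (n = 4) and -0.07 (n = 5) against young (n = 6). Aldoc was higher within both, by 0.27 and 0.32 among low inputs and by 0.30 and 0.26 among high inputs. Gjb6 was at -0.18 and -0.09 among low inputs and at 0.13 and -0.06 among high inputs. With the list sum as a covariate Aqp4 passed the test in old late animals (0.13, edgeR adjusted p 0.0471), and the call of no other gene of the 10 changed except that of Gja1 (0.12, edgeR adjusted p 0.0494).

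**Figure D4:**
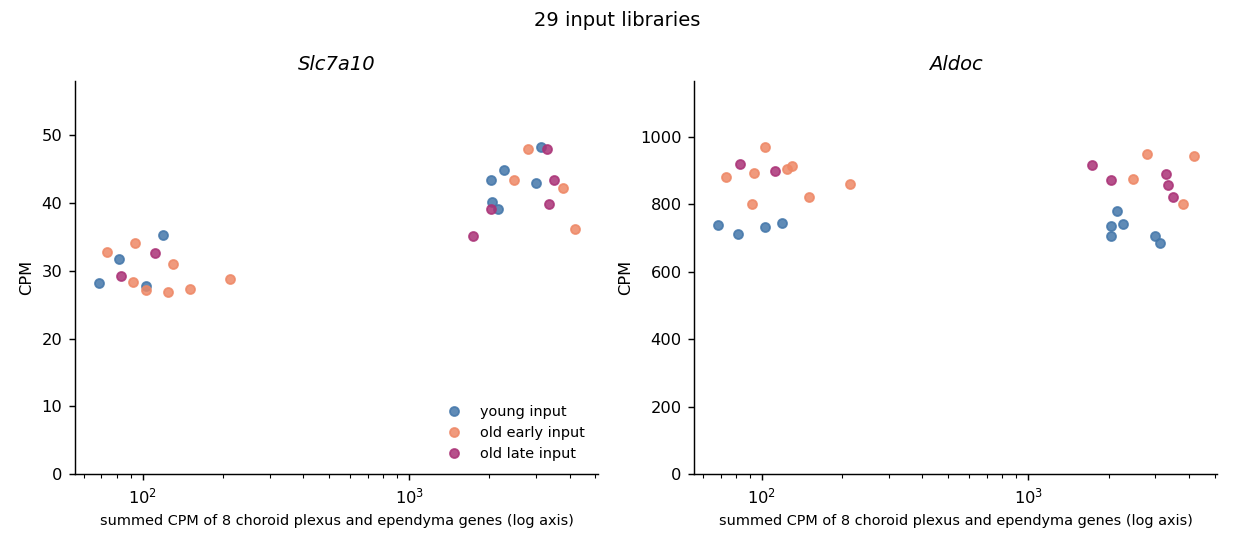
CPM of Slc7a10 and Aldoc (vertical axes, from 0) in the 29 inputs against the summed CPM of 8 choroid plexus and ependyma genes (log axis), by group. Inputs form a low and a high set on the horizontal axis; Slc7a10 is at 26.8 to 35.3 CPM in the low set and 35.1 to 48.3 CPM in the high set, whereas Aldoc separates by age in both.

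Sex was compared over all inputs with group as covariate. None of the 10 genes differed, against 0.174% of 14948 genes (26 genes) with an adjusted p below 0.05 in edgeR, 0.0468% higher in males and 0.127% lower. The log2 differences, male minus female, ranged from -0.11 (Aqp4, edgeR adjusted p 0.354) to 0.07 (Gja1, edgeR adjusted p 0.469). The 10 genes included 1 with an unadjusted p under 0.05 and 1632 of all genes did.

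Whether the age difference depended on sex was tested in the 22 early-induced inputs. None of the 10 genes passed, against 0.0% of 14953 genes in edgeR and 13 genes called by DESeq2. In edgeR 4 of the 10 genes had an unadjusted p under 0.05, as did 2301 of all genes. The lowest p among the 10 were those of Slc1a2 (interaction -0.20, edgeR adjusted p 0.222) and Gjb6 (0.37, edgeR adjusted p 0.222). Gjb6 was 77.3 ± 6.98 CPM in young females (SD, n = 5), 65.5 ± 5.01 CPM in old early females (SD, n = 7), 65.6 ± 4.43 CPM in young males (SD, n = 5) and 71.6 ± 13.4 CPM in old early males (SD, n = 5). Without old early replicate 6 its interaction was 0.45 (edgeR adjusted p 0.0378), and 453 genes were called in all. In a fit of females only, Gjb6 was lower in old early animals by a log2 fold change of -0.23 (edgeR adjusted p 0.0225) and Aldoc was the only gene of the 10 that was higher. The interaction of Slc7a10, 0.44 (edgeR adjusted p 0.331), was 0.02 (edgeR adjusted p 0.976) with the choroid plexus list sum as covariate. The cause of this change was not tested.

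**Figure D5:**
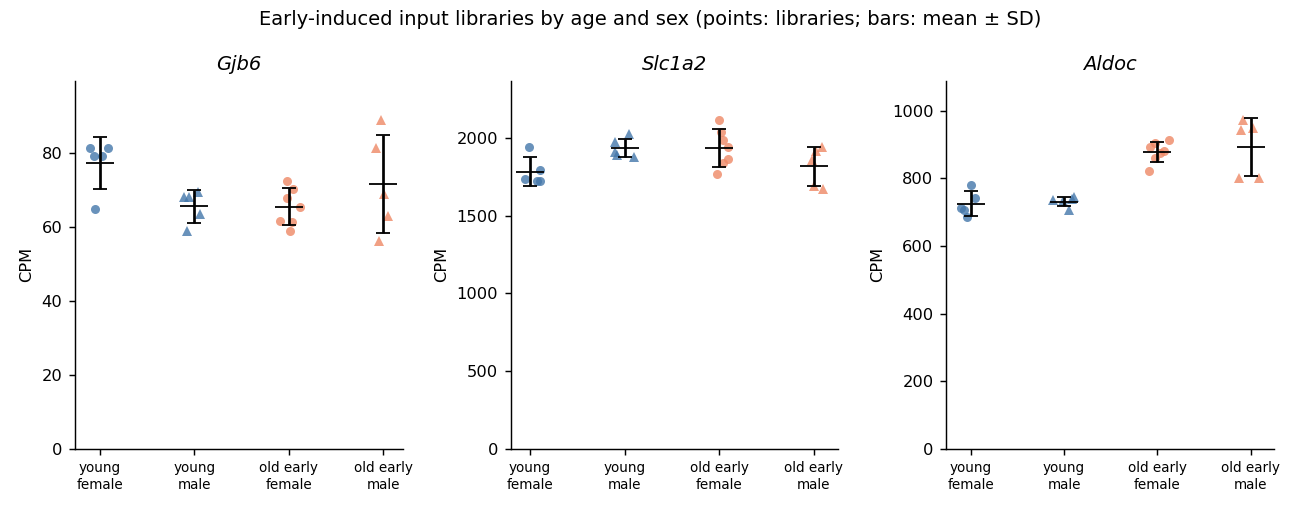
CPM (vertical axes, from 0) of Gjb6, Slc1a2 and Aldoc in early-induced inputs by age and sex, each point a library, with mean and SD. Gjb6 is highest on average in young females (77.3 CPM), old males span a wide range, and Aldoc is higher in old inputs of both sexes.

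Genes whose profile over all 36 libraries lay among the 8 nearest to the mean profile of the 10, by root mean square distance of centred log2 CPM, were Ttyh1 (0.07), Asrgl1 (0.08), Sfxn5 (0.08), Aldh6a1 (0.09), Pla2g7 (0.09), Cpe (0.09) and Clu (0.09). Ttyh1, Pla2g7 and Clu were on the astrocyte lists used above. The mean log2 TRAP to input ratios of the named genes ranged from -0.67 (Clu) to -0.42 (Sfxn5). Measured against the mean of the other 9, Slc1a3 and Mlc1 would rank 10 and 15 among 13100 genes. Gja1, Gjb6 and Slc7a10 would rank 4961, 5196 and 6293, so these 3 of the 10 lay farthest from the mean of the others. This distance grows with the size of a change as well as with a difference in direction.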

How the data were processed

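Values are estimated counts that the authors deposited in 1 table of 36 libraries, marked raw per the file headers. Of the nonzero values, 77.4% were not whole, and they were rounded here. Per the submitters' processing notes, mm10 and DESeq2 were used; the aligner, counter and strand setting are not given in the sources used here. Groups, sex and animal came from the labels. Counts were tested with edgeR 4.0.16 in R 4.3.3 (filterByExpr with a minimum count of 10, TMM, glmQLFit, glmQLFTest) over all genes, with Benjamini-Hochberg adjustment and a threshold of 0.05. Differences by age, induction and sex were taken from a joint model of 29 inputs with group and sex, the interaction from 22 early-induced inputs, and TRAP against input from 14 libraries with sex. CPM use TMM over all 36 libraries, and levels per kb use the exon union of GENCODE M21 models. The tests were tested on simulated data.

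All 10 genes are described in every comparison. From each of 19 other lists (215 of 216 genes matched), up to 3 called genes with the largest change and an average log2 CPM over 1 could be named, besides Cx3cr1. For likeness, the 8 nearest genes outside the 10 were taken. Some genes that these rules pick are not reported here. The genes and lists were chosen with earlier results of these data known. The animal numbers pair TRAP and input, and the 2 libraries of an animal deviated from the means of their groups together, with correlations of 0.292 to 0.439 over 7 pairs, against a median of -0.085 between animals. Alternatives were other scalings, DESeq2 1.42.0, limma 3.58.1 voom, no filter, no sex covariate, compared groups only, females only, the animal as block and single libraries left out; a choroid plexus covariate and leaving out 3 libraries or whole animals were added after the data were seen.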

Additional observations from a re-analysis of the deposited data

Results flagged for a closer look

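Of 40 sets of values tested for 1 library far from the others (the 10 genes in groups of 7 or 10 libraries, and their TRAP to input ratios in 7 animals), 2 had one by Dixon's ratio, and chance gives about 2. Gja1 was 197 CPM in young replicate 1, with the next young input at 178 CPM and a gap over the range of 0.494. Slc7a10 was 32.01 CPM in TRAP replicate 5, with the next TRAP library at 27.3 CPM and a gap over the range of 0.597. The 12 old early inputs were not tested in this way.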

How the results depend on the processing

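The count of genes higher with age was 3 in old early animals under every setting tried except in females only, where it was 1, with 1 lower (Gjb6); 1 was also lower without the 3 libraries that stood apart. In old late animals it was 4 to 5 when single libraries were left out and 4 to 6 over the other settings. Aldoc was called in all of them. For TRAP the count lower was 8 to 10 when libraries or animals were left out, 8 with no filter, no sex covariate or females only, and 3 with scaling by the neuron list, where Slc1a2 (0.11) and Glul (0.11) changed sign; the cause was not tested. With the animal as a replicate block 10 of the 10 genes were lower (9330 genes called in all, against 8640), so the pairing changed no call of the 10. The interaction count ranged from 0 to 1 when single libraries were left out, with the 1 being Gjb6 without old early replicate 6.

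Counts over all genes moved by more than 1.5 times as follows. In females only, 1198 genes differed in old early animals against 3826, and 2787 in old late animals against 5151, with fewer samples. Between old groups the 5 calls became 182 in females only, 58 in DESeq2, 3 with the choroid plexus covariate and 0 with the compared groups only, 838 without the 3 libraries, and 0 to 164 without single libraries (164 without old early replicate 5). The sex count of 26 became 64 in DESeq2, 12 in early-induced inputs and 17 without old late replicate 2, and the interaction count of 0 became 13 in DESeq2 and 453 without old early replicate 6. The 10 genes had at least 326 counts in each library; the part of depth in the small changes was not tested.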
